A study of Homo sapiens with 3 samples.

Results

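MDA-MB-231 cells transfected with an empty vector were set beside cells of a control named wt, 2 cultures that both lacked the FBP1 vector. MDA-MB-231 is a triple-negative human breast cancer cell line with mesenchymal features, and the series asked how its expression changes when FBP1, the gluconeogenic enzyme fructose-1,6-bisphosphatase 1, is overexpressed. Total RNA was read on Illumina bead arrays, with 1 array each for cells given the FBP1 vector, cells given the empty vector and the wt control. All cells grew in DMEM with serum and antibiotics. The labels do not say how the wt cells were handled, which backbone the vector had, or whether transfection was transient or followed by selection, so vector, transfection and time in culture cannot be told apart here. Genes with a detection p-value under 0.01 on either array entered, which kept 12344 of the 12895 genes detected on any of the 3 arrays. The brightest probe stood for its gene. Levels are normalised log2 intensities, differences are the empty vector level minus the wt level, and signals are intensities as deposited. Each group had 1 array, so nothing here was checked by replication or tested, genes were called by size, and every value compares a single array with a single array.

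An empty vector control carries the transfection and the vector's own DNA without the inserted gene, whereas untransfected cells of the same line carry neither. Cells can sense foreign DNA in the cytosol through cGAS and STING, which act on interferon genes and on NF-kB, the transcription factor that drives inflammatory cytokines. MDA-MB-231 cells are known for high production of NF-kB-driven cytokines such as interleukin 8 and interleukin 6 and for a mesenchymal-like state.

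Between 41.8% and 42.0% of the probes were detected on each of the 3 arrays, the median signals lay between 91.7 and 94.6 intensity units, and the lowest between 63.3 and 68.2, so the deposited signals still held their background. Levels on the empty vector and wt arrays correlated with a Pearson r of 0.988 across 18087 probes detected on both, which are not independent replicates. Genes that tell samples apart put 1 of the 3 arrays at odds with its label. The comparison of the empty vector and wt arrays may be affected, so both names below mean the arrays labelled so, and every direction rests on these labels. When the empty vector and wt arrays were normalised without the FBP1 array, the calls at 1.5-fold numbered 439 higher and 367 lower, against 493 and 414 with it. FBP1 itself was detected on both arrays. Its 1 probe gave a signal of 679 on the empty vector array, against 531 on the wt array, and levels of 10.06 on the FBP1 array and 9.22 on the empty vector array, against 8.77 on the wt array. FBP1 was 1.37-fold higher with the empty vector than in the wt control, which is under the size used for a call.

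Most genes lay close together on the empty vector and wt arrays. The median difference was 0.01, the quartiles were -0.18 and 0.20, and the 5th and 95th percentiles were -0.49 and 0.54. At least 1.5-fold, 493 genes were higher on the empty vector array (3.99% of those entered) and 414 were lower (3.35%), which is 907 genes apart, or 7.35%. At least 2-fold, 62 were higher (0.502%) and 69 lower (0.559%), 131 in all (1.06%), and 13 genes were at least 4-fold apart (0.105%). In the authors' processed values, which keep the background in the signal, the counts at 1.5-fold were 66 higher and 65 lower. The comparisons with the FBP1 array were wider, with 12.8% of genes at least 1.5-fold apart between the FBP1 and empty vector arrays and 17.0% between the FBP1 and wt arrays. All 3 comparisons share arrays. In RNA of a whole culture, fewer cells that make a transcript and less of it per cell cannot be told apart. Calls were commoner among dim genes. With genes split by mean level into 5 groups of equal size, 9.52% and 14.6% were at least 1.5-fold apart in the dimmest group and the next, against 2.31% in the brightest.

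**Figure D1:**
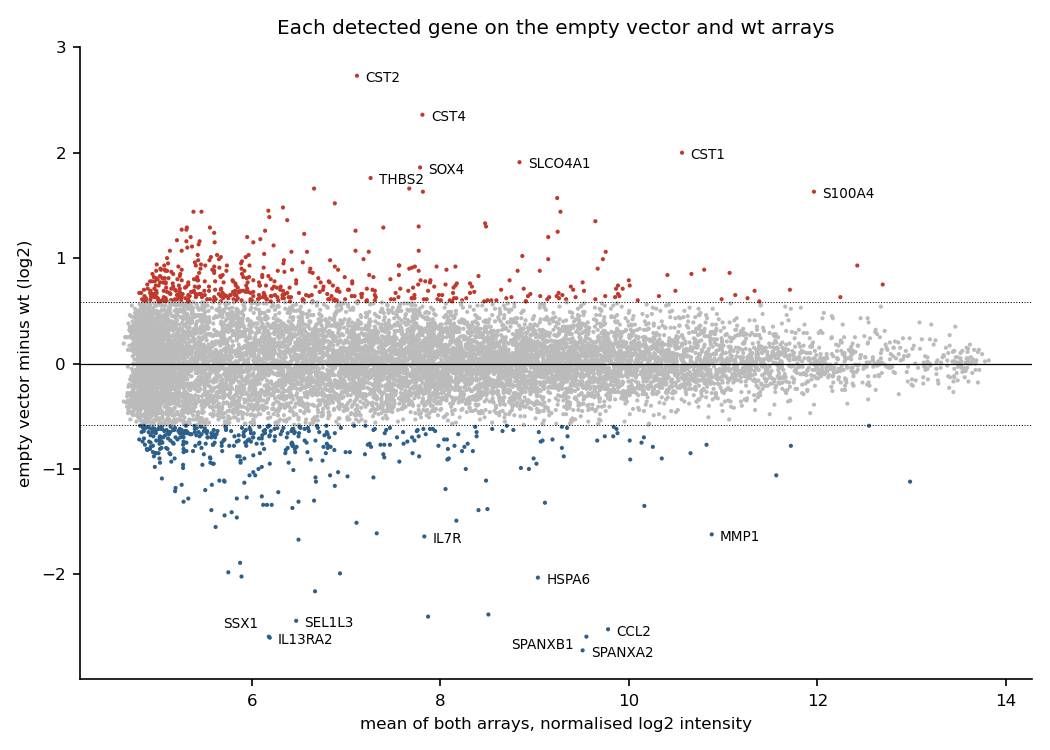
Difference of each of the 12344 entered genes (empty vector minus wt, log2) against its mean level on both arrays (normalised log2 intensity), with dotted lines at 1.5-fold, genes at least 1.5-fold higher on the empty vector array in red and those lower in blue. CST2 stands highest at 2.73 and SPANXA2 lowest at -2.72, and the cloud narrows toward bright genes, where the SD is 0.25 in the brightest of 5 equal groups of genes against 0.42 in the group next to the dimmest.

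The genes farthest above the wt array were led by secreted cystatins, inhibitors of cysteine proteases such as the cathepsins. CST2 (cystatin SA) had a level of 8.48 with the empty vector and 8.90 with the FBP1 vector, against 5.75 on the wt array, and was 6.65-fold higher on the empty vector array than on the wt array. CST4 (cystatin S) stood at 8.99 and 10.00, against 6.63 on the wt array, a difference of 2.36 that a further probe gave as 1.66. CST1 (cystatin SN) stood at 11.56 and 12.80, against 9.57, which made it 3.99-fold higher. On the FBP1 array all 3 were thus higher still than on the empty vector array. CST3, the widely expressed cystatin C, was 1.91-fold higher, while CST6 (0.49), CST7 (0.33) and CST9 (-0.11) did not reach 1.5-fold. Of 7 type 2 cystatins entered, 4 were higher and none lower by that size, against 3.99% and 3.35% of all genes entered. These 4 lie next to each other on chromosome 20 in the RefSeq order of entered genes. Their sequences resemble one another, so probes may read more than 1 member.

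A further group with the same direction was the S100 genes, small calcium-binding proteins. Of 13 list members entered, 4 were at least 1.5-fold higher (30.8%, against 3.99% of all genes entered) and none lower, and 11 were above 0, with a median of 0.46 against 0.01 for all genes. S100A4, known as a metastasis-associated protein, had signals of 7044.1 on the empty vector array, against 2471.5 on the wt array, and was 3.09-fold higher. Another probe for S100A4 gave a difference of 1.85. S100A3 was 2.70-fold higher and S100A2 2.57-fold higher, and in the RefSeq order S100A4, S100A3 and S100A2 are neighbours on chromosome 1. S100A9, which was not detected on the wt array, was at least 1.5-fold higher. The abundant members S100A6 (0.39), S100A10 (0.37) and S100A11 (0.28) stayed under the size for a call, and S100A14 (-0.23) and S100A1 (-0.17) lay below 0. Of all 15 entered genes whose names start with S100, 12 were above 0 and 3 below, with a median of 0.39 and a lowest value of -0.40.

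Other genes among the 20 highest had varied functions. SLCO4A1, an organic anion transporter that carries thyroid hormones, had a level of 9.80 with the empty vector and 10.45 with the FBP1 vector, against 7.88 on the wt array, and was 3.77-fold higher with the empty vector than in wt. The RNA from its opposite strand, SLCO4A1-AS1, was 2.87-fold higher. SOX4, a transcription factor of development, was 3.64-fold higher, at 8.72 against 6.85. THBS2, which encodes the matrix protein thrombospondin 2, was 3.39-fold higher. RGCC, a regulator of the cell cycle, and SERPINA1, the protease inhibitor alpha-1 antitrypsin, were each 3.16-fold higher, and OLFML2A, an extracellular olfactomedin-like protein, was 3.09-fold higher. These genes were all detected on both arrays. PRSS2, a trypsinogen with close paralogs, was 2.98-fold higher on the empty vector array, while its FBP1 array level of 8.82 lay nearer to the wt level of 8.45 than to the 10.03 on the empty vector array. DENND2A, an exchange factor for Rab GTPases, was 2.79-fold higher. The adrenergic receptor ADRA1B was 2.72-fold higher and the adhesion receptor ADGRG1 2.54-fold higher. FAM174B was 2.63-fold higher. TRIM7, a ubiquitin ligase, and RYR1, a calcium release channel, were not detected on the wt array and were at least 2.7-fold and at least 2.6-fold higher. A further TRIM7 probe gave 0.33.

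**Figure D2:**
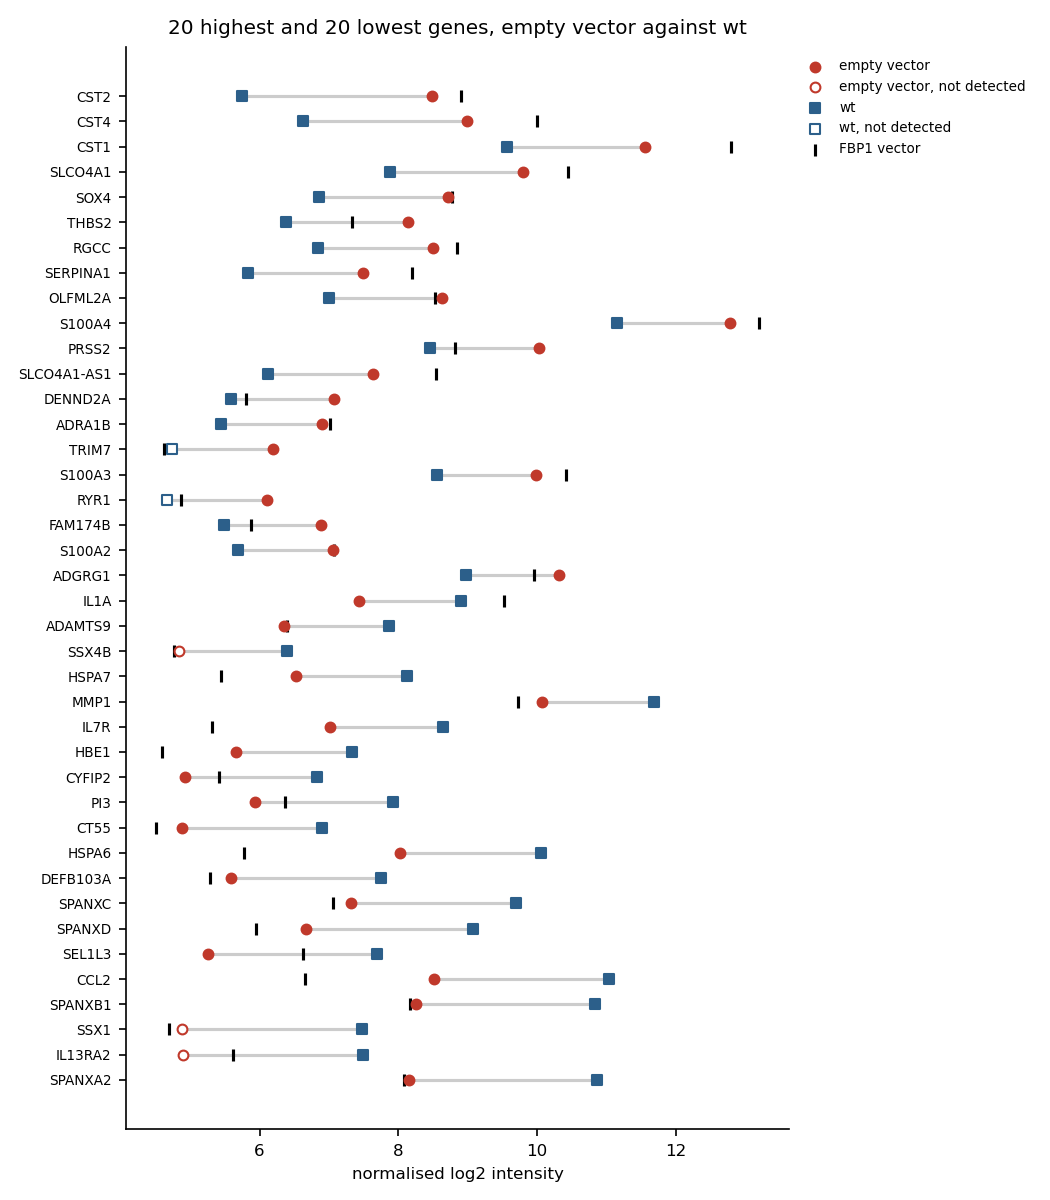
Level (normalised log2 intensity) of the 20 genes highest and the 20 lowest on the empty vector array relative to the wt array, with circles for the empty vector array, squares for the wt array, open symbols where the gene was not detected and ticks for the FBP1 array. The FBP1 tick lies beyond the empty vector value for CST1 (12.80, 11.56 and 9.57 on the FBP1, empty vector and wt arrays) and CCL2 (6.66, 8.52 and 11.04), and beyond the wt value for IL1A (9.52, 7.43 and 8.91).

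Cancer-testis genes made up 7 of the 20 lowest genes on the empty vector array. They are normally expressed in the testis and are silent in most other adult tissues. SPANXA2 encodes a sperm nucleus-associated protein of the X chromosome. Its signal was 361 on the empty vector array, against 2036.3 on the wt array. As a level it stood at 8.15 with the empty vector and 8.08 with the FBP1 vector, against 10.87 on the wt array, and it was 6.60-fold lower on the empty vector array than on the wt array. SPANXB1 was 6.01-fold lower, SPANXD 5.28-fold lower (-2.40, and -2.43 by a further probe), SPANXC 5.22-fold lower and SPANXA1 1.94-fold lower. So all 5 SPANX genes entered were at least 1.5-fold lower. The copies are nearly alike, and a probe may read more than 1 of them. SSX1, a cancer-testis gene known as a fusion partner in synovial sarcoma, was detected on the wt array at 7.48 and not on the empty vector array, and was at least 6.0-fold lower, with -1.79 by another probe. SSX4B was at least 2.9-fold lower. The other SSX genes entered, SSX2 (-0.56), SSX3 (-0.53) and SSX4 (-0.05), did not reach the size. CT55 was 4.06-fold lower by its brightest probe, with -0.28 by another. The MAGE family went neither way, with none of its 11 entered members at least 1.5-fold apart and values from -0.41 (MAGEA2) to 0.53 (MAGEE1). In the list of cancer-testis genes, 2 of 9 entered members, SSX1 and SPANXB1, were lower, against 3.35% of all genes entered. None was higher, and the median was -0.05.

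The promoters of a pair of these copies are printed to show how alike they are. Both are RefSeq sequences of GRCh38.p14, from 250 bases before to 50 bases after the annotated start, and capitals mark the 5 of 300 bases that differ between them. SPANXA2 lies at chrX:141589458-141589757 on the plus strand and SPANXC at chrX:141242468-141242767 on the minus strand.
SPANXA2: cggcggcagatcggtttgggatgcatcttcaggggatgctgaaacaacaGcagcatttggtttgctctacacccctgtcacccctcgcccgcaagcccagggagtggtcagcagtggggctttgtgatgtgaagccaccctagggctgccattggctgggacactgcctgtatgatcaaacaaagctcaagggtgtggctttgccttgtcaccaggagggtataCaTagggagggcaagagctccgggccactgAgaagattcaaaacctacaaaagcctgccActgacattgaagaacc
SPANXC: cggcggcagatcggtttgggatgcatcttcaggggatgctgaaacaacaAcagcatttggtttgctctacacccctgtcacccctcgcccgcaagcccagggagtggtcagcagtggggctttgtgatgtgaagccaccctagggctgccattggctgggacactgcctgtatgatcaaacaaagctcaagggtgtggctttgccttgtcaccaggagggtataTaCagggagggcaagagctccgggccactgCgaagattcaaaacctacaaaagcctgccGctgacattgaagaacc
The same window of SPANXA1 was identical to that of SPANXA2. The SPANXB1 window matched it at 255 of 340 aligned positions and the SPANXD window at 177 of 345, although both genes were lower by a similar amount (-2.59 and -2.40).

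Some inflammatory cytokine genes were lower on the empty vector array and a few were higher. Among chemokines, the secreted proteins that attract leukocytes, 5 of 12 members entered were at least 1.5-fold lower (41.7%, against 3.35% of all genes entered) and 2 higher. The median of -0.45 depended on which dim members entered, as it was -0.08 with a detection p-value under 0.05 and -0.06 with no detection filter. CCL2, which attracts monocytes, had signals of 445 on the empty vector array, against 2281.1 on the wt array. It stood at 6.66 on the FBP1 array and 8.52 on the empty vector array, against 11.04 on the wt array, and was 5.73-fold lower on the empty vector array than on the wt array. CXCL8 (interleukin 8), a neutrophil attractant, was 2.18-fold lower, at 12.42 against 13.55, and a further probe gave -1.28. CXCL2 was 2.00-fold lower and CXCL1 1.87-fold lower, both neutrophil attractants of the same gene cluster. CCL20, which attracts cells that carry CCR6, was 1.60-fold lower, at 6.43 against 7.11, and its level of 10.17 on the FBP1 array was above both. CXCL3 was not detected on the wt array and was at least 1.6-fold higher on the empty vector array, and CX3CL1 (fractalkine) was 1.61-fold higher, although both were dim, at 5.40 and 5.89. With normexp background correction, with no background correction and in the authors' values no chemokine was higher by that size and 4 were lower. The remaining members were CXCL16 (-0.58), CXCL10 (-0.32), CCL5 (-0.08), CCL26 (0.28) and CCL28 (0.30).

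CXCL1, CXCL2, CXCL3 and CXCL8 belong to a single cluster on chromosome 4. Their promoters are printed because CXCL3 went the other way from the rest, although its reading was near background. The sequences are from RefSeq, GRCh38.p14, over the same window as above, and capitals mark the letters GGANTTTCC, an NF-kB site searched on both strands, where N is any base. CXCL1 lies at chr4:73869143-73869442 on the plus strand, CXCL2 at chr4:74099146-74099445 on the minus strand, CXCL3 at chr4:74038640-74038939 on the minus strand and CXCL8 at chr4:73740319-73740618 on the plus strand.
CXCL1: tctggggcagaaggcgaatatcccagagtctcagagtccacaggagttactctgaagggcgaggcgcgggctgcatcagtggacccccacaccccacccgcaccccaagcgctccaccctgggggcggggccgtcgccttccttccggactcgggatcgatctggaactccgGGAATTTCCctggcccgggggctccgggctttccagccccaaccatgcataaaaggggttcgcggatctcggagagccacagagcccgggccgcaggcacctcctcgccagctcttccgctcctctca
CXCL2: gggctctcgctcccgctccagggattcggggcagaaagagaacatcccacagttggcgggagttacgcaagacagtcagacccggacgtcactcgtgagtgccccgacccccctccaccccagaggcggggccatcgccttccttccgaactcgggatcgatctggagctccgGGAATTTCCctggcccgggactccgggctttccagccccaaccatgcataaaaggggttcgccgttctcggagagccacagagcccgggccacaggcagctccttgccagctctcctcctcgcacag
CXCL3: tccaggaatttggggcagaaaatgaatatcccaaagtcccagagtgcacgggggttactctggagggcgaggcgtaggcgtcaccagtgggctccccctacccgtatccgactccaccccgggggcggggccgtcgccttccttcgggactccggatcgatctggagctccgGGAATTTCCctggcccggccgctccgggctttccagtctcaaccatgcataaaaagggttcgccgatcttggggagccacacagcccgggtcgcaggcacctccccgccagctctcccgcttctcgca
CXCL8: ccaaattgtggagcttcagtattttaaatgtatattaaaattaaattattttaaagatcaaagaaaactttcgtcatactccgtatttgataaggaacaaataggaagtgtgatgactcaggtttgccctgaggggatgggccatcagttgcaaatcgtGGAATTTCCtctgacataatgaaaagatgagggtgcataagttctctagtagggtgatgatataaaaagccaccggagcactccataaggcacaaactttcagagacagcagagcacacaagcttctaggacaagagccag
Each window held the letters 1 time, CXCL3 included. They were in 449 of all 27195 promoters in the table (1.65%), in 5 of the 8 chemokine promoters and in 9 of the 30 promoters of the NF-kB list. The windows of CXCL1 and CXCL3 shared 82.5% of aligned positions, and those of CXCL1 and CXCL2 71.9%. A match of letters is a description of the sequence and says nothing of binding.

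In the NF-kB list the subunits and inhibitors stayed within 1.5-fold and 7 cytokine and other target genes were lower. All 5 subunits entered were within 1.5-fold, from NFKB2 at -0.32 to RELB at 0.21, and none of the 10 inhibitor or feedback genes was at least 1.5-fold apart, with NFKBIA (I kappa B alpha) at 0.13 and TNFAIP3 (A20) at -0.35. Of 10 cytokines entered, 4 were lower and 1 higher, with a median of -0.52. IL1A (interleukin 1 alpha) was 2.80-fold lower, at 7.43 against 8.91, IL24 2.28-fold, IL1B (interleukin 1 beta) 1.93-fold and IL11 1.67-fold lower. Another IL24 probe gave -0.49. IL6 lay at -0.48. The exception was LTB, the lymphotoxin beta gene, 2.18-fold higher, at 6.79 against 5.67. Of 12 other targets, 3 were lower and none higher. PTGS2, the inducible cyclooxygenase, was 2.50-fold lower, and its other probe gave -1.64. LCN2 (lipocalin 2) was 1.88-fold lower, and SOD2, the mitochondrial superoxide dismutase, 1.81-fold lower. The whole list had 7 lower and 1 higher of 37, with a median of -0.19 and 26 members below 0. Over all genes entered, 3.35% were lower and 3.99% higher by at least 1.5-fold, and 6040 of 12344 were below 0. On the FBP1 array IL1A stood at 9.52, PTGS2 at 10.74, LCN2 at 11.04 and SOD2 at 11.92, above both other arrays in each case, whereas IL11 stood at 8.51, below both.

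Interleukin receptors included a pair of the lowest genes. IL13RA2, a receptor that binds interleukin 13 and is widely described as a decoy, was detected on the wt array at 7.49 and not on the empty vector array, where its level was 4.89, and was at least 6.0-fold lower. IL7R, the interleukin 7 receptor, was 3.12-fold lower, at 7.01 against 8.65, with -1.62 by a further probe. IL21R was 1.68-fold lower, at 5.31 against 6.05. Thus 3 of the 16 receptors entered were at least 1.5-fold lower (18.8%, against 3.35% of all genes) and none was higher. The median was -0.17, or -0.04 with no detection filter. IL27RA lay at -0.56, IL15RA at -0.31, IL17RC at -0.28, IL6ST (the shared chain gp130) at -0.23, IL17RD at -0.19 and OSMR at -0.16. IL20RB (0.01), IL10RB (0.01), IL1R1 (0.03), IL13RA1 (0.06), IL4R (0.10), LIFR (0.16) and IL1RAP (0.35) were at or above 0. For IL17RC another probe gave 0.95.

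Pregnancy-specific glycoproteins, placental relatives of the CEACAM adhesion proteins, were below 0 in each of the 6 members entered, against 6040 of all 12344 genes. PSG4 was 2.16-fold lower, at 7.93 with the empty vector and 5.54 with the FBP1 vector, against 9.04 on the wt array, and a further probe gave -0.85. PSG7 was 1.92-fold lower and PSG6 1.90-fold lower. PSG3 (-0.45), PSG5 (-0.45) and PSG9 (-0.42) did not reach 1.5-fold, nor did CEACAM1 (-0.49) and CEACAM19 (-0.48). Most were dim, and the PSG genes are close copies whose probes may read each other. The embryonic and fetal globin genes of the beta globin cluster were lower together in the same manner, as HBE1 was 3.18-fold lower (5.66 against 7.33) and HBG1 and HBG2, which were not detected on the empty vector array, at least 1.6-fold lower each. HBG1 and HBG2 are near-identical.

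HSPA6, a stress-inducible HSP70 chaperone with little expression in unstressed cells, had signals of 337 on the empty vector array, against 1192 on the wt array. Its level was 5.78 on the FBP1 array and 8.02 on the empty vector array, against 10.05 on the wt array, and it was 4.08-fold lower on the empty vector array. Another HSPA6 probe gave -0.92. HSPA7, a pseudogene copy of it, was 3.06-fold lower, and the probes of both may share targets. The small heat shock protein gene HSPB8 was 1.54-fold lower. In the heat shock list, 2 of 28 members were lower, none was higher, 21 were below 0 and the median was -0.11. Over all genes entered, 3.35% were at least 1.5-fold lower, 3.99% were higher and 6040 of 12344 were below 0. The major inducible HSP70 genes HSPA1A (-0.29) and HSPA1B (-0.39) stayed within 1.5-fold, and so did the constitutive HSPA8 (-0.04) and the HSP90 gene HSP90AB1 (0.04). HSPA1A and HSPA1B are near-identical copies.

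The HSPA6 promoter is printed because HSPA6 stood far below the other chaperones and its window holds a heat shock element. The sequence is from RefSeq, GRCh38.p14, at chr1:161524290-161524589 on the plus strand, and capitals mark that element, which was searched on both strands as GAA, any 2 bases, TTC, any 2 bases and GAA.
HSPA6: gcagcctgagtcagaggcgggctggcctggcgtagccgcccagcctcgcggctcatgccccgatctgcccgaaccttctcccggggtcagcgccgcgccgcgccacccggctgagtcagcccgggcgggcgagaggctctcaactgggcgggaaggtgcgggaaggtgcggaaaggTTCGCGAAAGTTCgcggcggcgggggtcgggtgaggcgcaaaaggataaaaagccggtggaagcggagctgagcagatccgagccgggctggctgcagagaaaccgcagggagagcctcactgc
These letters were in 133 of 27195 promoters (0.489%) and in 6 of the 25 heat shock promoters in the table, those of HSPA6, HSPA8, DNAJA1, DNAJB6, CHORDC1 and SERPINH1. HSPA8 lay at -0.04, so the letters went with different values.

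Secreted proteases and their inhibitors went different ways. MMP1, interstitial collagenase, had signals of 1159.5 on the empty vector array, against 3504.8 on the wt array and was 3.08-fold lower. MMP3 (stromelysin 1) was 2.46-fold lower and ADAMTS6 2.17-fold lower. ADAMTS9, a further metalloprotease that is not in the list, was 2.85-fold lower. In the other direction the inhibitor TIMP3 was 2.51-fold higher, at 9.14 against 7.81, TIMP4 2.30-fold higher and TIMP1 1.68-fold higher, at 13.07 against 12.32. TIMP2 lay at 0.31. Of 5 inhibitors entered, 3 were at least 1.5-fold higher and none lower, against 3.99% and 3.35% of all genes entered. Of 17 proteases, 4 were higher (MMP14 at 0.78, ADAM19 at 0.70, ADAMTS1 at 0.64 and MMP16 at 0.62) and 3 lower. The other MMP16 probe gave -0.40. PI3 (elafin), an inhibitor of elastase, was 3.97-fold lower.

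Of 42 collagen and other matrix genes entered, 6 were at least 1.5-fold higher (14.3%, against 3.99% of all genes entered), 1 was lower and 27 were above 0. With normexp, with no background correction and in the authors' values 3, 3 and 2 were higher. The median of 0.21 was 0.10 with a detection p-value under 0.05 and 0.07 with no detection filter. Besides THBS2, the higher ones were the microfibril gene MFAP2 (0.82), COL5A1 (0.69), the laminin chain LAMA5 (0.69), COL18A1 (0.66) and the anchoring fibril gene COL7A1 (0.60). COL8A1 was 2.09-fold lower, at 11.03 against 12.10, with -1.65 by another probe. Among integrins, which bind matrix proteins, 2 of 18 were higher (11.1%, against 3.99% of all genes) and none lower, with a median of 0.27 that was 0.05 with no detection filter. ITGB4, the beta chain of the laminin receptor of hemidesmosomes, was 2.44-fold higher, with 0.54 by another probe, and ITGA10 was 1.97-fold higher. The list of lysosome and autophagy genes had 4 of 30 higher, none lower and a median of 0.17. Its higher members were CST1, CST3 and CST4, cysteine protease inhibitors that are secreted, and ULK1 (0.71), the kinase that starts autophagy.

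**Figure D3:**
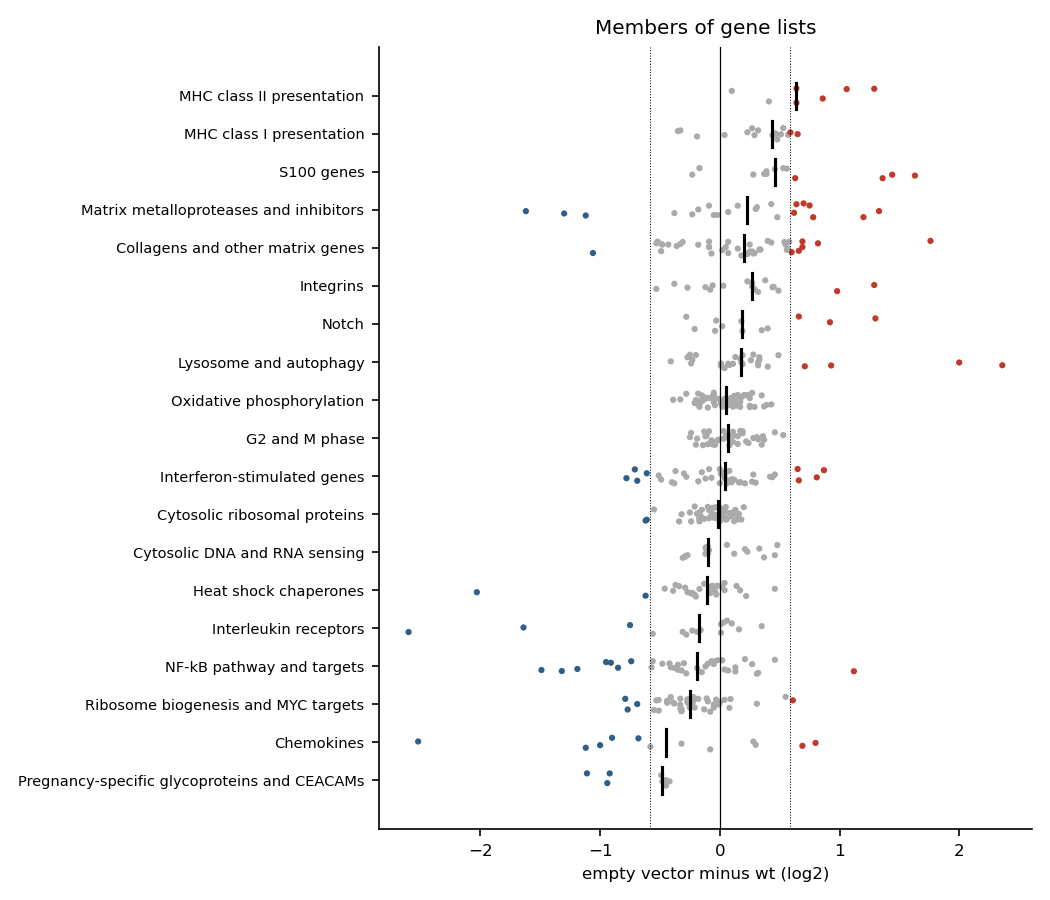
Difference (empty vector minus wt, log2) of each entered member of 19 gene lists, with dotted lines at 1.5-fold, a black bar at each list's median, members at least 1.5-fold higher in red and lower in blue. MHC class II genes have a median of 0.64, pregnancy-specific glycoproteins -0.48 and chemokines -0.45 (-0.06 with no detection filter), and oxidative phosphorylation and G2 and M phase genes stay inside the lines.

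Among antigen presentation genes, 5 of 7 entered members of the MHC class II list and 2 of 17 of the class I list were at least 1.5-fold higher (71.4% and 11.8%, against 3.99% of all genes), and none was lower. Of 11 HLA class II genes entered, in the list or not, 8 were higher by that size, with values from 0.36 to 1.29. All 7 class II list members were above 0, with a median of 0.64. With no background correction 3 of them and in the authors' values 2 were higher by that size. HLA-DPA1 was 2.08-fold higher, at 10.28 against 9.23, and HLA-DRA, the alpha chain of HLA-DR, was 1.82-fold higher, at 11.50 against 10.64, with 0.92 by a further probe. HLA-DPB1 was not detected on the wt array and was at least 2.4-fold higher. HLA-DMA and HLA-DMB, which load peptides, were each 1.56-fold higher. The 2 members that are encoded elsewhere in the genome were within 1.5-fold, CD74 (the invariant chain) at 0.41 and CIITA, the transactivator of class II genes, at 0.10. In the class I list, 14 of 17 were above 0, those at least 1.5-fold higher were HLA-F (0.65) and the immunoproteasome subunit PSMB9 (0.59), and the median was 0.44. By the mean of detected probes no class I gene reached 1.5-fold. HLA-B (0.53), HLA-E (0.44), the peptide transporter TAP1 (0.48) and PSMB8 (0.57) were close to the size for a call. Of the members outside chromosome 6, PSMB10 lay at 0.47, B2M at 0.27, CALR at 0.23, CANX at -0.33, ERAP2 at -0.35 and the class I transactivator NLRC5 at -0.19. HLA genes differ between people and resemble each other, so their probes may read other alleles or members.

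The MHC genes were part of a long run of neighbouring genes that stood higher. With entered genes placed in the RefSeq order and medians taken over windows of 50 genes, 21 of 481 windows were at 0.20 or above and 3 at -0.20 or below. Joined windows on chromosome 6, from C6orf62 to AARS2, held 275 genes with a median of 0.28, of which 224 (81.5%) were above 0, 49 (17.8%) at least 1.5-fold higher and 4 lower. The other 378 genes of that chromosome had a median of -0.05. Without its 20 MHC genes the stretch still had a median of 0.25 over 255 genes, with 39 higher and 4 lower. The 20 MHC genes were all above 0, with a median of 0.58. The next brightest probe, where 59 genes of the stretch had one, gave a median of 0.28, and the authors' processed values gave 0.18. These windows were chosen by their values, so the stretches are described and not tested.

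Chromosome X held a similar stretch. From PLCXD1 to GSPT2 in the RefSeq order, 150 genes had a median of 0.31, with 122 (81.3%) above 0, 26 (17.3%) at least 1.5-fold higher and 4 lower, while the other 292 X genes had a median of -0.03. In both long stretches together 75 of 425 genes were higher (17.6%) and 8 lower (1.88%), against 416 of 11897 (3.50%) and 403 (3.39%) of the genes placed elsewhere. On the FBP1 array both stretches lay close to their empty vector level. The median of the FBP1 minus wt difference was 0.29 for the chromosome 6 stretch and 0.30 for the X stretch, and the median of the empty vector minus FBP1 difference was 0.01 and -0.02, in comparisons that share arrays. A further stretch of chromosome 6, from RNF146 to FAM120B, had a median of -0.20 over 125 genes, with 2 higher and 8 lower, and there the FBP1 minus wt median was -0.05 and the empty vector minus FBP1 median -0.15.

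Several genes from these stretches were picked out after their values were seen, to show their range. On chromosome 6 SPDEF, an epithelial transcription factor of luminal cells, was 2.45-fold higher, VEGFA, the vascular growth factor, 2.02-fold higher (1.38 by another probe) and LTB 2.18-fold higher. The butyrophilin gene BTN3A2 was 1.90-fold higher there and the kinase gene PIM1 1.62-fold. On chromosome X, SHROOM2, an actin-binding protein, was 2.08-fold higher, the deubiquitinase OTUD5 2.08-fold, the tubulin deacetylase HDAC6 1.90-fold and the adaptor SH3KBP1 1.81-fold. PDK3, a pyruvate dehydrogenase kinase, was 1.86-fold higher and SAT1, an enzyme of polyamine breakdown, 1.62-fold. TIMP1 also lies in the X stretch. Not all members were higher, as TAP2 (0.04) and HSP90AB1 (0.04) on chromosome 6 show, and SSX1 lies in the X stretch but was among the lowest genes.

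**Figure D4:**
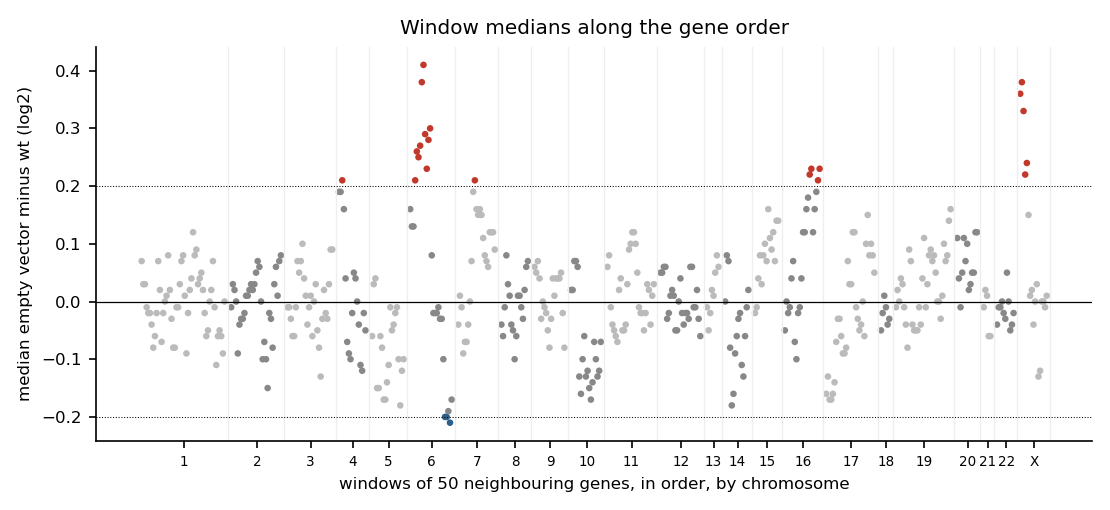
Median difference (empty vector minus wt, log2) of windows of 50 neighbouring entered genes, in RefSeq order by chromosome, with dotted lines at 0.2 and -0.2, windows at or above the upper line in red and at or below the lower line in blue. The windows of chromosomes 6 and X rise to 0.41 and 0.38, and the lowest window, on chromosome 6, lies at -0.21.

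Genes of interferon signalling and of nucleic acid sensing showed no shared direction. None of the 18 sensing genes entered was at least 1.5-fold apart, and they ranged from IFIH1 (MDA5) at -0.31 to ZBP1 at 0.48. The cytosolic DNA sensor CGAS lay at -0.27, its adaptor STING1 at -0.12 and the nuclease TREX1, which removes cytosolic DNA, at 0.46. ZBP1 and TREX1 were not detected on the wt array. Of 42 interferon-stimulated genes, 4 were higher and 4 lower, beside 3.99% and 3.35% of all genes entered, and the median was 0.04. The lower ones were OASL (-0.78), OAS1 (-0.71), IFIT1 (-0.69) and RSAD2 (-0.61), antiviral effectors, and other probes gave 0.32 for OASL, 0.01 for OAS1 and -0.56 for IFIT1. The higher ones were SAMD9L (0.87), the GTPases GBP3 (0.81) and GBP2 (0.66), and TRIM22 (0.65).

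Growth factor pathways held single genes that differed, while 3.99% of all genes entered were at least 1.5-fold higher and 3.35% lower. In the TGF-beta and BMP list, 3 of 27 were higher and 3 lower, with a median of 0.01. PMEPA1, a TGF-beta target that restrains the pathway, was 2.38-fold higher (1.21 by another probe), and FST (follistatin), which binds activin, was 2.56-fold lower (-1.26 by another probe). ID3, a BMP target, was 1.76-fold lower and the BMP antagonist GREM1, not detected on the empty vector array, at least 1.5-fold lower. The protease BMP1 (0.65) was higher, and the receptor TGFBR1, not detected on the wt array, was at least 1.7-fold higher. Of 12 Notch genes, 3 were higher and none lower, with a median of 0.18 that was 0.04 by the mean of detected probes. LFNG, which glycosylates Notch receptors, was 2.46-fold higher by its brightest probe, although another gave 0.01. The ligand JAG1 was 1.89-fold higher, and the target HEY1 lay at 0.66 with another probe at -0.53. The Wnt list had 3 of 24 higher and 1 lower, with a median of 0.20 (0.10 with no detection filter). The receptors FZD1 (0.70), FZD8 (0.68) and LRP5 (0.63) were higher. The ligand WNT5A, not detected on the empty vector array, was at least 1.5-fold lower. Another LRP5 probe gave 0.02. In the EGFR and ERK feedback list the inhibitor SPRY1 (0.74) and the ligand EREG (0.62) were higher and IL24 lower, of 23, with a median of 0.15.

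Transcriptional stress and response lists went different ways. Of all genes entered, 3.99% were at least 1.5-fold higher, 3.35% were lower by that size and 6040 of 12344 lay below 0. Among 21 immediate early genes, which respond within minutes to serum and stress, FOS (-0.84), the phosphatase DUSP1 (-0.79), EGR1 (-0.78) and ATF3 (-0.77) were lower, KLF10 (0.71) and NR4A1 (0.66) higher, and the median was -0.02. NR4A1 was not detected on the wt array and was at least 1.4-fold higher. Another KLF10 probe gave 0.16. The hypoxia list had 3 of 22 higher, VEGFA, NDRG1 (0.89) and ANKRD37 (0.79), none lower and a median of 0.06, and VEGFA lies in the chromosome 6 stretch. The list of ribosome biogenesis and MYC target genes had 39 of 45 members below 0 and a median of -0.25, yet 3 of 45 were at least 1.5-fold lower, the nucleolar proteins NOLC1 (-0.79), DDX21 (-0.77) and TSR1 (-0.69), and TCOF1 (0.61) was higher. Another TSR1 probe gave -0.02. Of its 33 ribosome assembly genes, 28 were below 0. The ATF4 integrated stress response list had 1 of 32 lower (ATF3), none higher and a median of -0.12. The p53 list had 1 of 19 higher (TP53INP1, 0.78), the NRF2 list 1 of 21 (AKR1C3, 0.71), and the YAP and TEAD list 1 of 22 higher (ANKRD1, 0.83) and 1 lower (AMOTL2, -0.60), with medians of -0.01, 0.01 and -0.15. Another TP53INP1 probe gave 0.18.

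Core metabolism and the cell cycle lay close together, while 7.35% of all genes entered were at least 1.5-fold apart. That share was 2.31% in the brightest of the 5 groups by mean level and 3.81% in the next. A short or bright list without a call is therefore near these shares. No member was at least 1.5-fold apart among 62 oxidative phosphorylation genes (median 0.05), 45 G2 and M phase genes (0.07), 24 genes of glycolysis and gluconeogenesis (-0.01), 20 of cholesterol synthesis (-0.04), 21 of fatty acid and lipid synthesis (-0.04), 19 of the unfolded protein response (-0.06), 18 housekeeping genes (0.03), 9 keratins (0.04) and 5 metallothioneins (0.18). Among 37 S phase genes, the replication gene GINS4 (0.68) was higher and none was lower. Among 26 genes of the TCA cycle and pyruvate dehydrogenase, PDK3 was higher and none was lower. Of 66 cytosolic ribosomal proteins, RPS7 (-0.62) and RPL36A (-0.61) were lower and none was higher, with a median of -0.02, and both have near-identical copies elsewhere in the genome. In the plasminogen and serpin list SERPINA1 was higher and the coagulation genes F3 (tissue factor, -0.60) and TFPI2 (-0.59) lower, of 16. The prostaglandin list had PTGDS (0.64) and AKR1C3 higher and PTGS2 lower, of 9. PTGDS was not detected on the wt array and was at least 1.4-fold higher. The complement list had C1QBP (-0.78), a mitochondrial protein that can bind C1q, lower and none higher, of 10.

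Markers of the line and of other cell types were read on both arrays. All 14 markers known to be high in MDA-MB-231 that the array holds were detected on both, and S100A4 and TIMP1 among them were higher on the empty vector array. Of 13 markers known to be low or lost, 4 were detected with the empty vector and 3 in the wt control. Those detected on both were EPCAM (signals of 400 and 342 on the empty vector and wt arrays), CLDN7 (451 and 464) and ERBB3 (106 and 120). RAB25 (100 and 86.6) was detected with the empty vector only. The luminal genes ESR1, PGR, GATA3 and FOXA1, the epithelial adhesion gene CDH1 and the tumour suppressor CDKN2A, which are among those low or lost, were detected on neither. Among 17 epithelial genes, the tight junction genes CLDN1 (2.12-fold) and CLDN3 (at least 2.4-fold) were lower, the polarity gene CRB3 (at least 2.1-fold) and the mucin MUC1 (1.99-fold, 1.13 by another probe) higher. CLDN11, a claudin outside that list, was 2.75-fold lower. Of 18 mesenchymal genes S100A4 was the 1 at least 1.5-fold apart. Over all genes entered, 3.99% were at least 1.5-fold higher, 3.35% lower and 7.35% apart, so 1 of 18 is near that share. In the list of breast cancer stem-like markers, SOX4 was higher and THY1 and CD24 (-0.76) lower, of 10, and among neuron-associated genes GAL (-0.80) and MAP1B (-0.61) were lower, of 11.

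Few markers of blood, vessel and stromal cells were detected. Of 13 blood cell markers, 5 were detected with the empty vector and 4 in the wt control, and the pan-leukocyte gene PTPRC, CD3E and MS4A1 were on neither. LCP1 (L-plastin), which cancer cell lines also express, was 2.63-fold lower, at 7.71 against 9.10. The summed signals of the blood list were 1673.4 and 1964.0 on the empty vector and wt arrays. Such sums hold the background of every probe, estimated at a mean of 87.99 and 87.22 on these arrays. For 12 fibroblast markers they were 1169.1 and 1201.0, PDGFRA, DCN and LUM were detected on neither array, and THY1 was 2.72-fold lower, at 4.99 against 6.43. For 9 endothelial markers the sums were 2209.4 and 2255.8, of which ESAM alone gave 1461.1 and 1525.1. CDH5 and VWF were on neither, and KDR, at least 1.5-fold higher, was not detected on the wt array. For 14 luminal markers the sums were 6688.4 and 5888.3, with SPDEF higher. Sums for 8 basal markers were 6465.3 and 5878.1, and KRT5 and KRT14 were on neither array. None of the 4 basal markers detected was at least 1.5-fold apart, beside 7.35% of all genes entered.

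Agreement between probes of a gene gave a further reading of the same arrays. Of the 12344 genes, 7487 had 1 probe on the array and 3321 had more than 1 that was detected. Of 101 such genes called higher by the brightest probe at 1.5-fold, the next brightest had the same sign in 86 and reached 1.5-fold in 27, and its median was 0.34. Of 97 called lower, it had the same sign in 78 and reached 1.5-fold in 27, with a median of -0.34. In none of these did it reach 1.5-fold the other way. At 2-fold the signs were shared in 11 of 11 higher and 19 of 22 lower genes, and 7 and 13 reached 1.5-fold. Across the 3321 genes the differences of both probes had a Pearson r of 0.46, given as a description, since the probes share arrays. In the authors' processed values, which come from the same arrays, all 20 highest genes were above 0, 17 of them by at least 1.5-fold. All 20 lowest were below 0 by at least 1.5-fold.

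**Figure D5:**
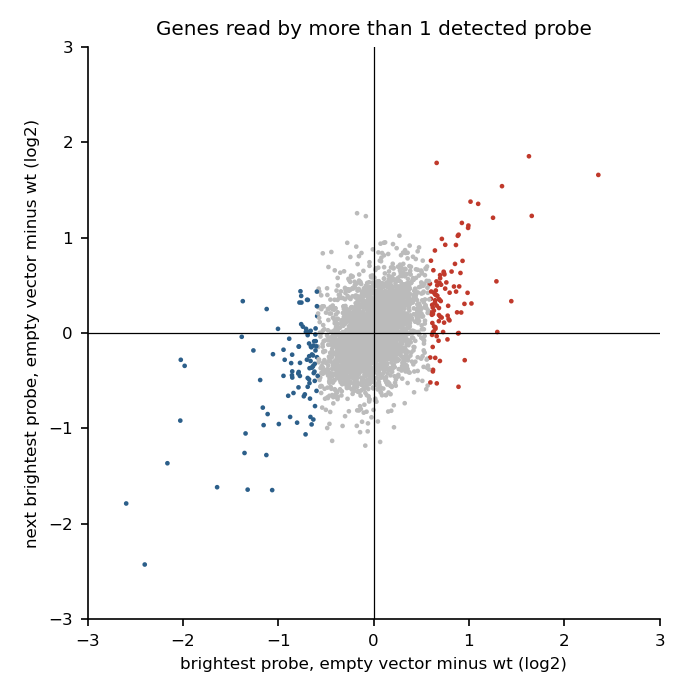
Difference (empty vector minus wt, log2) by the next brightest detected probe against that by the brightest, for 3321 genes, with genes at least 1.5-fold higher by the brightest probe in red and lower in blue. CST4 (2.36 and 1.66) and S100A4 (1.63 and 1.85) lie at the upper right and SPANXD (-2.40 and -2.43) and IL7R (-1.64 and -1.62) at the lower left, while CT55 (-2.02 and -0.28) lies near the horizontal axis.

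A few of the lowest genes belonged to none of these groups. SEL1L3 was 5.44-fold lower, at 5.25 with the empty vector and 6.63 with the FBP1 vector, against 7.69 on the wt array. DEFB103A, the antimicrobial beta-defensin 3, was 4.48-fold lower, with -1.37 by another probe, and has a near-identical copy, DEFB103B (-0.53). CYFIP2, a part of the WAVE complex that directs actin assembly, was 3.70-fold lower, at 4.93 against 6.82. Another antimicrobial gene of the same family, DEFB123, was 1.55-fold higher.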

How the data were processed

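The deposited table holds a signal intensity and a detection p-value for each probe on each of 3 arrays, per the file headers. These intensities are on a linear scale, and the sources used here do not give how beads were summarised. The deposited series matrix gives these probes an intensity as processed by the authors, scaled between arrays (medians 87.8, 87.9 and 87.8 on the FBP1, empty vector and wt arrays) by a method not given in the sources used here.

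Of 48107 probes, 2 lacked a signal and were left out. All 3 arrays were background-corrected and quantile normalised together by limma's neqc (limma 3.58.1 under R 4.3.3, offset 16), which estimated background from the p-values because the table marks no control probes. The background means were 85.75, 87.99 and 87.22 and the SDs 4.19, 12.79 and 16.17 on the FBP1, empty vector and wt arrays. Probes took genes from the platform annotation: 30113 had 1 gene, 8 with several were dropped, and 30074 of those with 1 gene matched RefSeq by gene ID. The brightest probe stood for each of 20045 genes. For genes undetected on the dimmer array, "at least" gives the fold against the lowest detected level there or the gene's own, whichever is higher; the lowest detected levels were 4.70 with the empty vector and 4.69 in wt. Calls use the difference itself, so such a bound can be under 1.5. Gene order and promoters came from RefSeq, GRCh38; the files name no build, so genes were matched by name, and 29 of the 41 genes named for size, with FBP1, had a promoter in the table. Later steps used Python 3.11.15, numpy 2.4.6, pandas 2.3.3 and matplotlib 3.10.9, and were tested on simulated arrays.

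The genes named were FBP1, the 20 highest and 20 lowest, the 2 highest and 2 lowest of each of 51 gene lists, all members past 1.5-fold in lists with at most 10 such members, and every entered chemokine, interleukin receptor and pregnancy-specific glycoprotein. Others were picked after their values were seen: those named as stretch members, the beta globins, the HLA, SSX, MAGE and cystatin relatives outside the lists, and members named as close to 0. The comparison, the lists and the rule were chosen with earlier results of these data known. Alternatives changed background correction, normalisation, detection filter and probe choice. With 1 array per group there was no test, and precision is limited by the number of arrays.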

Additional observations from a re-analysis of the deposited data

How the results depend on the processing

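Counts moved by over 1.5 times under 3 settings that change the background correction, of which normexp also changes the offset and the authors' values the scaling. With normexp on all probes (offset 50), no background correction and the authors' processed values, genes at least 1.5-fold higher on the empty vector array numbered 138, 93 and 66 (493 as reported) and those lower 136, 89 and 65 (414), and at 2-fold 20, 16 and 14 were higher (62) and 27, 21 and 20 lower (69). All of the 138, 93, 136 and 89 genes were among those reported, as were 63 of the 66 and 65 of the 65. These settings read the same arrays, so the overlap is no separate support. Under 7 other settings (median scaling, cyclic loess, the empty vector and wt arrays normalised alone, detection on both arrays, detection p-value under 0.05, no detection filter, and the mean of detected probes) the counts stayed within 1.5 times, and the share of calls that were higher ran from 50.4% to 57.1% over the 10 settings (54.4% as reported). All 144 named genes past 1.5-fold, which were chosen from the same arrays, kept their sign in these 10 settings. By the next brightest detected probe, which only some of them had, 4 changed sign, HEY1 (-0.53), MMP16 (-0.40), OAS1 (0.01) and OASL (0.32). Others kept their sign but fell near 0, such as LFNG (0.01) and LRP5 (0.02). Some list medians changed sign. That of the stem-like markers was -0.16, but 0.04 with no detection filter, and that of the fibroblast markers was 0.13, but -0.02 with detection on both arrays. Medians near 0 did so too, as those of the cancer-testis genes (0.05 with detection on both arrays), keratins (-0.03) and TGF-beta and BMP genes (-0.08, both by the mean of detected probes), p53 targets (0.05 with no detection filter), and immediate early genes and ribosomal proteins (0.02 each with median scaling). The cause was not tested. List medians hold only the members that entered, and the filter moved several of them, as given beside them. No paired analysis was possible because each group had 1 array and no replicate numbers.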

Other observations

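Probes without a gene name behaved like the rest. Of 17985 such probes, 5601 were detected on either array, and 7.21% of these were at least 1.5-fold apart, 191 higher on the empty vector array and 213 lower.

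Neighbouring genes also differed together in short runs, some of them inside the long stretches. Runs of at least 3 entered neighbours that were all at least 1.5-fold apart in one direction numbered 12, of which 8 were higher on the empty vector array and 4 lower. Besides the cystatins, S100 genes, SPANX genes, globins and HLA genes, they held AKR1C3, AKR1C4 and NET1 on chromosome 10 (0.66 to 0.79), where the AKR1C genes encode ketosteroid reductases, RNF213, ENDOV and RPTOR on chromosome 17 (0.59 to 0.79), SLC4A3, EPHA4 and SGPP2 on chromosome 2 (0.63 to 0.71), and, among lower genes, CLDN11, RPL22L1 and EIF5A2 on chromosome 3 (-1.46 to -0.65) and RASSF6, CXCL8 and CXCL1 on chromosome 4 (-1.12 to -0.61). AKR1C genes are close copies, and AKR1C2 lay at -0.19. The HLA runs lie in the long stretch of chromosome 6. A run of ZBED1, CD99 and ARSD (0.67 to 1.26) lies in the X stretch.

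Shorter stretches with a raised median were MAN2B2 to STIM2 on chromosome 4 (0.21 over 50 genes), HIP1 to VPS50 on chromosome 7 (0.21 over 50 genes), and NDRG4 to AARS1 (0.21 over 75 genes) and PLCG2 to DRC4 (0.22 over 60 genes) on chromosome 16. By the next brightest probe their medians were 0.10, 0.07, 0.20 and 0.05, over 9, 17, 20 and 12 genes. The long stretch on chromosome 6 kept a median between 0.18 and 0.30 over its alternatives, which were added after the data were seen.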
